A study of Mus musculus with 721 samples.

Results

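The 42 genes described here drive DNA replication (20 genes) and mitosis (22 genes), and were taken by their symbols from a table of 32806 Ensembl genes. All 42 had a row. They were measured in single cells of the embryonic mouse pancreas by SMART-seq, a protocol that copies whole polyadenylated transcripts of 1 cell. The cells came from Neurog3-eGFP embryos, in which eGFP reports the gene of the endocrine transcription factor Neurog3, and eGFP-positive cells were sorted singly into 96-well plates at E11.5, E12.5, E13.5, E14.5 and E15.5. No other allele or treatment is named, every cell carried the reporter, and eGFP can outlast Neurog3 transcript. Of 721 cells, 658 were kept, in 8 sets of 1 day in 1 sequencing run. E11.5 and E12.5 exist in run 1 only, with 73 and 90 kept cells, and the other days in both runs, with 68 to 94 kept cells in each of 6 sets. The labels name no animals, so the set is the unit of every test, and p-values measure only spread over sets, which may be technical. In comparisons of states this is the spread left after a term for set. Levels are FPKM, fragments scaled to transcript length and to the cell's mapped fragments, so levels of different genes can be set side by side.

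Cells of E13.5 to E15.5 were placed in states by transcript. Of these 495 cells, 150 had Neurog3 at 10 FPKM or more and Fev below that (Neurog3 only), 76 had both Neurog3 and Fev at that level, 60 had Fev only, 166 had a hormone gene (Ins1, Ins2, Gcg, Sst, Ghrl or Ppy) at 100 FPKM or more whatever their Neurog3 and Fev, and 43 had none of these (no marker). Of the 43, 1 cell of E15.5 run 2 was macrophage-like by its genes; that set had 4 no-marker cells and entered no test of this state. Fev encodes a transcription factor of endocrine precursors that follows Neurog3. At E11.5 and E12.5, 62 cells were tip-like, carrying acinar and multipotent tip genes such as Cpa1 and Ptf1a, and 40 were macrophage-like, carrying immune genes such as C1qa and Csf1r. The 10 macrophage markers summed to 9526 to 12120 FPKM in the macrophage-like cells and to 7.21 to 12.9 FPKM in the tip-like cells. The 11 tip markers summed to 2265 to 6395 FPKM in the tip-like cells and 0.788 to 4.39 FPKM in the macrophage-like cells. Cells were placed in a class by 3 or more of these same markers at 10 FPKM or more, and fewer than 3 of the other list and of 6 endothelial markers. These sums therefore describe the classes and do not test them. Tip-like cells were also limited to E11.5 and E12.5 and to cells with no marker, so the rule keeps other days and states out of this class. At E13.5 to E15.5, 3 or more tip markers were found in 18 of 150 Neurog3-only cells and 9 of 76 with Neurog3 and Fev. They were also found in 6 of 60 Fev-only, 29 of 166 hormone and 3 of 43 no-marker cells. The tip markers summed to 863 to 4285 FPKM in later Neurog3-only sets, 92.7 to 1240 FPKM with Neurog3 and Fev and 62.6 to 798 FPKM with Fev only. They summed to 198 to 6291 FPKM in hormone sets and 42.5 to 2946 FPKM in no-marker sets, so some later sets reached the tip-like range. The early classes differ in day from the later cells, and by the rule in state for tip-like cells, and are described apart. Kept cells held 101675 to 1990000 mapped fragments, with medians of 480057 to 844417 per set. Index pairs recur between sets (58 to 88 shared per pair of sets), and 1 pair of hormone cells, 1 from each run of E14.5, was more alike than any other pair across those runs (correlation 0.874, next 0.763). Both had 0 mitotic genes at 10 FPKM or more and were kept.

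Replication starts when the Mcm2 to Mcm7 helicase, loaded on DNA by Cdc6 and Cdt1, is switched on with Cdc45 and the GINS complex, while Pcna clamps the polymerases and Tyms, Tk1, Rrm1 and Rrm2 supply nucleotides. Mitosis is entered through Cdk1 with cyclins A2, B1 and B2, the spindle is built by motors and kinases, and Cdc20 and Ube2c mark cyclins for destruction. In endocrine development, cells with high Neurog3 are known to leave the cell cycle, and hormone cells are known to be largely out of it when they first appear. Replication genes are classically switched on through E2F sites in their promoters, and mitotic genes through CCAAT boxes and the cell cycle homology region (CHR).

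Promoter sequence was available for 35 of the 42 genes (RefSeq, build GRCm38.p6), 16 for replication and 19 for mitosis. Mcm7 and Prc1 have 2 promoters each, so 17 replication and 20 mitotic promoters were counted, and the 250 bases before each start were searched on both strands. An E2F letter match (TTTCCCGC, TTTCGCGC, TTTGCCGC or TTTGGCGC) was in 4 of 17 replication promoters (23.5%) and 1 of 20 mitotic promoters (5%), against 1.86% of all 32851 promoters. A CHR match (TTTGAA or TTCGAA) was in 3 of 17 replication promoters (17.6%) and 10 of 20 mitotic promoters (50%), against 17.1% of all. A CCAAT match was in 11 of 17 (64.7%) and 18 of 20 (90%), against 33.8% of all. The 5 stretches below, each 170 bases ending at the base before the start, are shown because they hold these letters in 5 genes whose levels differed between states. Capitals mark matches on either strand, so ATTGG is CCAAT read from the other strand, and TTCAAA is TTTGAA. In Mcm5 and Mcm6 a run of capitals holds a pair of overlapping E2F matches, 1 on each strand. A match is a description of letters and not a bound site.
Mcm5 (chr8:75109339-75109508, plus strand): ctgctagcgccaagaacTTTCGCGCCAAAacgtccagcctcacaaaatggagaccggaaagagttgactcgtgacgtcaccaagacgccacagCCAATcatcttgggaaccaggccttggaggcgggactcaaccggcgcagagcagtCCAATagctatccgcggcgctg
Mcm6 (chr1:128359706-128359875, minus strand): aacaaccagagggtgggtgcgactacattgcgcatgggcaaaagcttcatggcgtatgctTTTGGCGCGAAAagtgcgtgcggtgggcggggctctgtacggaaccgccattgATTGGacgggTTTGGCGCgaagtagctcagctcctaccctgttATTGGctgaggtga
Top2a (chr11:99024190-99024359, minus strand): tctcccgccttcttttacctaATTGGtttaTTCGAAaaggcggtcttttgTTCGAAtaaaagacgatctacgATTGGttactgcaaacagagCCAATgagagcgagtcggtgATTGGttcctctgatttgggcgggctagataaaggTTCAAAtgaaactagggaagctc
Ccnb2 (chr9:70421555-70421724, minus strand): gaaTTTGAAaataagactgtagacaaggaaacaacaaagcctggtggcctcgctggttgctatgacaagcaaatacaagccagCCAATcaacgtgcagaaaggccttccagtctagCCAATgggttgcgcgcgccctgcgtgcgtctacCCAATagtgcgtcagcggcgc
Cdc20 (chr4:118437344-118437513, minus strand): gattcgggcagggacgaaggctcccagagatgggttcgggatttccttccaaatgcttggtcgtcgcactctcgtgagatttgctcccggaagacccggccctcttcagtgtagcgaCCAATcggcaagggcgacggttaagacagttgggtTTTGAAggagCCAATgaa
The first pair of stretches hold E2F and CCAAT matches and no CHR match. The other three hold CHR and CCAAT matches and no E2F match, and Cdc20 has its CHR match 12 bases before the start, against 161 bases in Ccnb2.

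The levels of both lists were highest in the early cells, lower in Neurog3-only cells and lower again in Fev-only cells. The median over the 20 replication genes was 122 FPKM at E11.5 and 73.7 FPKM at E12.5 in tip-like cells, and 125 and 77.6 FPKM in macrophage-like cells. In Neurog3-only cells it was 30.95 and 28.3 FPKM in runs 1 and 2 of E13.5, 34.1 and 23.6 FPKM in those of E14.5, and 38.4 and 19.4 FPKM in those of E15.5. In Fev-only cells, in the same order of sets, it was 9.70, 5.88, 4.21, 1.38, 3.93 and 0.260 FPKM. No Fev-only set reached the lowest Neurog3-only set. In a mean over cells, fewer cells with a transcript and less transcript per cell cannot be told apart. The counts per cell below use a fixed level and separate them only in part.

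The mitotic list was lower and varied more between sets. Its median was 55.04 and 26.2 FPKM in tip-like cells at E11.5 and E12.5, and 55.2 and 74.2 FPKM in macrophage-like cells. In Neurog3-only cells, in the order of sets above, it was 13.2, 1.77, 3.57, 1.93, 11.04 and 7.07 FPKM. In Fev-only cells it was 0.0109, 0.477, 0.0382, 0.0493, 0.0475 and 0.0465 FPKM. Fev-only cells again lay below every Neurog3-only set. In hormone cells 5 sets lay between 0.283 and 1.27 FPKM and E13.5 run 2 at 7.51 FPKM.

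**Figure D1:**
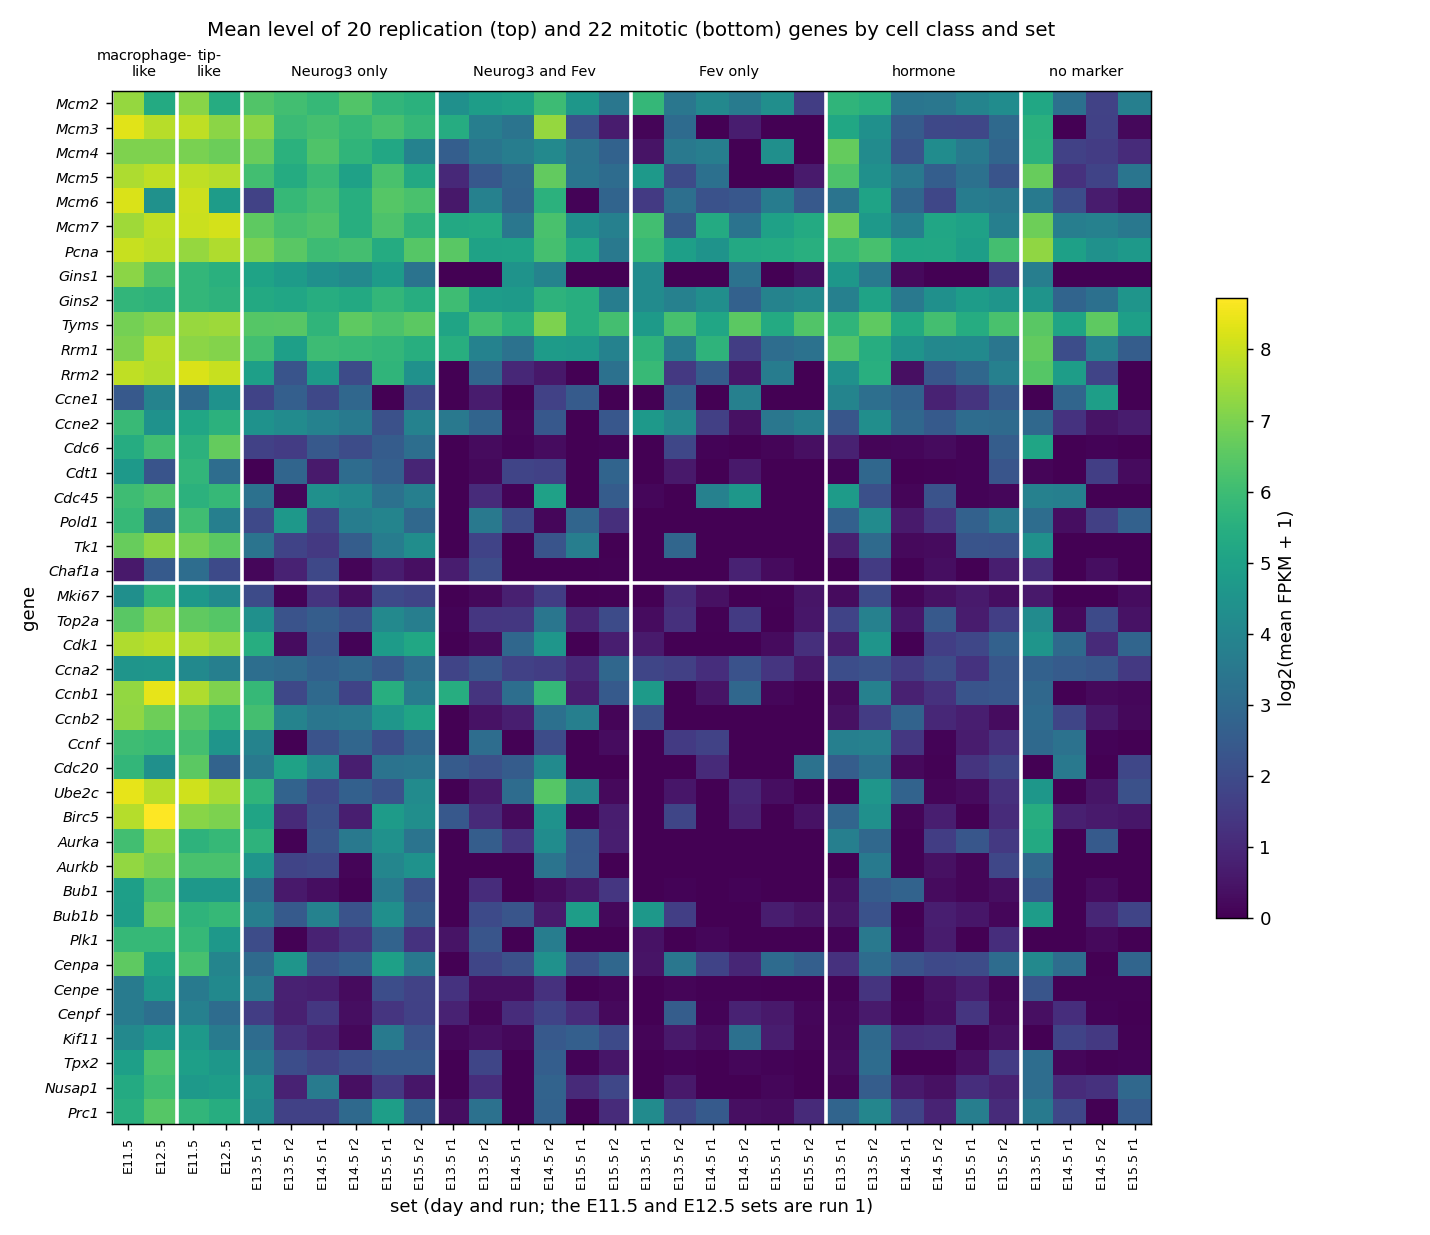
Mean level of each of the 42 genes (rows; 20 replication genes above the white line, 22 mitotic below) in each cell class and set (columns), as log2(mean FPKM + 1) by colour. The Fev-only columns are dark for Mcm3, Pold1, Aurka and Aurkb, and Tyms stays bright in every column.

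Fev-only cells had less of 16 of the 38 tested genes than Neurog3-only cells, 9 of 19 replication genes and 7 of 19 mitotic genes, and more of none (limma, Benjamini-Hochberg adjusted p under 0.05, set as a term). Among all 15530 genes tested, 5.14% were lower and 3.59% higher. All 38 differences were negative, as were 54.4% of those over all genes. The median difference was -1.83 on the log2 scale for replication and -2.22 for mitotic genes, against -0.09 over all genes tested. The 4 genes not tested, Chaf1a, Mki67, Cenpe and Cenpf, averaged under 1 FPKM. Differences are in log2(mean FPKM + 1), which understates those of low genes.

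Helicase genes carried the largest replication differences. Mcm3 was at 147, 60.7, 70.8, 56.5, 72.4 and 54.5 FPKM in Neurog3-only cells, in the order of sets given above (run 1 then run 2 of each day), which is kept from here on. In Fev-only cells it was at 0.0783, 7.22, 0, 0.617, 0 and 0 FPKM. The states did not overlap, and the difference was -5.55 ± 0.77 (SE; adjusted p = 3.95e-05, limma).

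Mcm2, another helicase subunit, was at 81.4, 66.2, 57.1, 81.3, 52.8 and 47.1 FPKM in Neurog3-only cells and at 55.8, 9.99, 15.7, 11.3, 19.1 and 1.97 FPKM in Fev-only cells. E13.5 run 1 was the 1 Fev-only set inside the Neurog3-only range, and the difference was -2.19 ± 0.50 (SE; adjusted p = 0.0055, limma). Mcm5 was at 66.6, 40.2, 58.6, 30.8, 73.2 and 37.5 FPKM in Neurog3-only cells and at 24.6, 2.99, 8.42, 0, 0 and 0.534 FPKM in Fev-only cells, with no overlap. Its difference was -3.88 ± 0.89 (adjusted p = 0.00584). Mcm4 fell by 3.56 ± 0.78 (adjusted p = 0.00433) and Mcm6 fell by 2.75 ± 0.81 (adjusted p = 0.0331). Both overlapped between states. Mcm4 was at 19.45 FPKM in Fev-only cells of E15.5 run 1 and at 13.56 FPKM in Neurog3-only cells of E15.5 run 2. Mcm6 was at 2.33 FPKM in Neurog3-only cells of E13.5 run 1 and at 1.78 to 11.82 FPKM in Fev-only sets. The Mcm6 difference passed in 11 of 21 alternative settings.

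Mcm7, the sixth helicase subunit, did not pass the test (-1.49 ± 0.54, adjusted p = 0.0917). Its Fev-only sets lay at 4.59 to 67.03 FPKM and its Neurog3-only sets at 43.6 to 94.1 FPKM, so they overlapped. Of the GINS subunits, which join the helicase at firing, Gins2 was at 37.97, 34.6, 41.96, 38.6, 53.6 and 42.1 FPKM in Neurog3-only cells and at 17.7, 13.2, 18.9, 5.58, 13.9 and 16.1 FPKM in Fev-only cells. The states were apart in every set (-1.55 ± 0.38, adjusted p = 0.00904). Gins1 differed by -3.11 ± 0.91 (adjusted p = 0.0324) and was near 0 in 4 Fev-only sets. Its Fev-only set of E13.5 run 1 (17.6 FPKM) lay inside the Neurog3-only range of 8.97 to 32.7 FPKM. The Gins1 difference passed in 10 of 21 alternative settings.

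Pold1, the catalytic subunit of DNA polymerase delta, was listed at 0 in all 6 Fev-only sets and at 2.76, 23.9, 2.48, 11.9, 14.4 and 6.76 FPKM in Neurog3-only cells (adjusted p = 0.000517, limma). Rrm1, the large subunit of ribonucleotide reductase, differed by -1.85 ± 0.56 (adjusted p = 0.0375), and its small subunit Rrm2 by -1.66 ± 1.00 (adjusted p = 0.372). Rrm1 in Fev-only cells of E13.5 run 1 and E14.5 run 1 (49.7 and 50.7 FPKM) lay inside its Neurog3-only range of 29.7 to 67.2 FPKM. The Rrm1 difference passed in 8 of 21 alternative settings. Rrm2 ranged from 3.00 to 51.1 FPKM over Neurog3-only sets and from 0 to 58.6 FPKM over Fev-only sets. Thymidylate synthase, Tyms, had the smallest difference, -0.61 ± 0.26 (adjusted p = 0.173), and was at 10 FPKM or more in 97.3% of Neurog3-only and 96.7% of Fev-only cells. Pcna did not pass (-0.9994 ± 0.3817, adjusted p = 0.116) and was at 10 FPKM or more in 58% and 51.7% of these cells. Pcna and Ccnb2 each have a pseudogene copy in the table, so their values are uncertain. Gins2 and Cdt1 share 1 long locus in the deposited table, so their values are uncertain as well.

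Of the mitotic genes, Ccnb2 (cyclin B2) had the largest difference among genes not listed at 0 throughout a state. It was at 68.9, 14.1, 9.73, 10.47, 22.9 and 32.9 FPKM in Neurog3-only cells and at 3.33 FPKM in Fev-only cells of E13.5 run 1 and listed at 0 in the other 5 sets. The difference was -4.09 ± 0.70 (SE; adjusted p = 0.000429, limma). The aurora kinases Aurka and Aurkb, which act on the spindle and the chromosomes, were listed at 0 in every Fev-only set. Aurka was at 49.1, 0.0371, 3.98, 10.4, 20.1 and 9.13 FPKM in Neurog3-only cells (adjusted p = 0.0134) and Aurkb at 22.3, 2.46, 2.70, 0.0757, 15.1 and 20.9 FPKM (adjusted p = 0.03). The Aurka difference passed in 16 of 21 alternative settings and that of Aurkb in 9 of 20.

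Top2a, which untangles chromosomes, was at 19.8, 3.70, 4.97, 3.35, 16.2 and 12.1 FPKM in Neurog3-only cells and at 0.215, 1.29, 0.0461, 1.78, 0 and 0.428 FPKM in Fev-only cells. The ranges were apart, with a difference of -2.60 ± 0.64 (adjusted p = 0.0101, limma). Tpx2, a spindle assembly factor, fell by 2.36 ± 0.57 (adjusted p = 0.0093), and Ccna2, cyclin A2, fell by 1.43 ± 0.35 (adjusted p = 0.0094). Cdc20 fell by 2.65 ± 0.81 (adjusted p = 0.0421), although E14.5 run 2 had only 0.659 FPKM in Neurog3-only cells. Cdk1, Ube2c and Birc5 had differences of -2.68 ± 0.99, -2.95 ± 1.05 and -2.51 ± 0.88 that did not pass (adjusted p = 0.101, 0.0885 and 0.0829), and they ranged from 0.0589 to 42.6, 2.79 to 51.3 and 0.647 to 33.5 FPKM over Neurog3-only sets.

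Every Fev-only set was below every Neurog3-only set for 11 of the 38 genes, 4 for replication and 7 for mitosis, against 2.16% of all genes tested. The count of 16 fell to 9 without E15.5 run 1, to 2 with run 1 alone and to 4 with run 2 alone. Fragments per cell had similar medians in both states (614347 in Neurog3 only and 583600 in Fev only), as did genes per cell (5278 and 5226). The 11 tip markers summed to 863 to 4285 FPKM in Neurog3-only sets and 62.6 to 798 FPKM in Fev-only sets, with Ptf1a and Rbpjl at 0 in the latter, and the part of tip-marked cells in these differences was not tested. The 7 duct or trunk markers, of which Sox9 is also a tip marker, summed to 539.7 to 1548 FPKM in Neurog3-only sets and 94.7 to 378 FPKM in Fev-only sets, and their part was not tested either. Between runs and along day, 0 of the 38 genes differed in this contrast by limma's interaction tests at an adjusted p under 0.05. At that limit 0.0193% of all genes tested were lower between runs, and 0% along day. At an unadjusted p under 0.05 there were 2 and 0 of the 38 genes. Those shares are not the background of these counts. The share of all genes at the unadjusted limit is not given here, so these counts are not a result about the members.

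**Figure D2:**
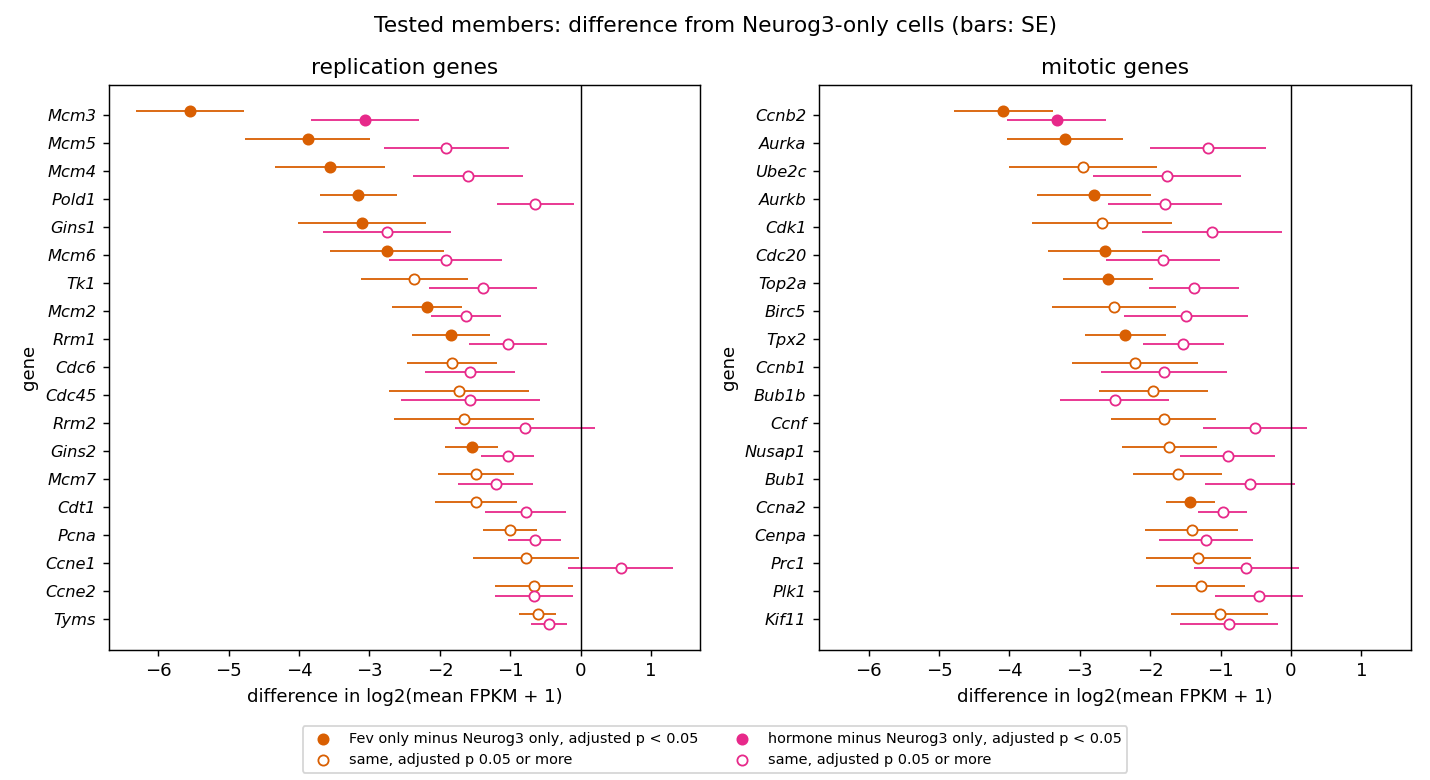
Difference from Neurog3-only cells in log2(mean FPKM + 1) for the 38 tested genes, with standard errors as bars; filled points have an adjusted p under 0.05. Fev-only differences (orange) are all negative, and hormone differences (pink), which share the same Neurog3-only cells, pass the test for Mcm3 and Ccnb2.

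Cells with both Neurog3 and Fev were compared with the same Neurog3-only cells, so the comparisons share that reference. Only Ccnb2 of the 38 genes passed (1.08% of all genes tested were lower and 1.06% higher). It was at 0, 0.359, 0.676, 8.34, 12.6 and 0.0922 FPKM, of which E15.5 run 1 reached into the Neurog3-only range, with a difference of -3.06 ± 0.70 (adjusted p = 0.0189, limma). The median difference was -1.54 for replication and -1.43 for mitotic genes, against -0.04 over all genes. E14.5 run 2 stood above the other sets of this state, with Mcm3 at 162 FPKM against 0.573 to 41.3 FPKM, and without it 3 genes passed. The count was 0 without E13.5 run 2, without E14.5 run 1 or without E15.5 run 2, and 2 without E13.5 run 1. Cdc6, which loads the helicase, was below every Neurog3-only set (0 to 0.224 against 1.93 to 7.89 FPKM), the 1 gene of the 38 to be so, against 0.715% of all genes tested.

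Hormone cells had less of Mcm3 and Ccnb2 than Neurog3-only cells, 2 of the 38 genes, against 1.12% of all genes tested. Mcm3 was at 35.4, 19.9, 4.66, 2.68, 2.65 and 6.95 FPKM in hormone cells, below every Neurog3-only set and highest in both sets of E13.5 (-3.06 ± 0.77, adjusted p = 0.0162, limma). Ccnb2 was at 0.311, 1.91, 5.81, 0.954, 0.677 and 0.215 FPKM (-3.33 ± 0.70, adjusted p = 0.00446). The median difference was -1.21 for each list, against 0.19 over all genes tested. Every hormone set was below every Neurog3-only set for 5 genes, Mcm3, Gins2, Ccna2, Ccnb2 and Bub1b, against 0.451% of all genes tested.

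The hormone state mixed cells with and without Neurog3. Taking only hormone cells with Neurog3 below 10 FPKM, 13 genes were lower than in Neurog3-only cells, 8 for replication and 5 for mitosis, where 3.78% of all genes tested were lower. Leaving out E13.5 run 1 raised the count for all hormone cells from 2 to 7, and leaving out E14.5 run 1 or E15.5 run 1 lowered it to 1. Between runs and along day, limma's interaction tests called 0 of the 38 genes in this contrast at an adjusted p under 0.05. At that limit 0.0193% of all genes tested were lower and 0.0258% higher between runs, and 0.0193% higher along day. At an unadjusted p under 0.05 there were 5 and 2 of the 38 genes. Those shares are not the background of these counts. Without the share of all genes at the unadjusted limit, which is not given here, these counts are not a result about the members. Mcm4, a helicase subunit, was at 101 FPKM in hormone cells of E13.5 run 1 and at 3.74 to 17.9 FPKM in the other 5. Against Fev-only cells, hormone cells had a lower level of 0 of the 38 genes and a higher level of 1, Pold1 (5.40, 17.6, 0.534, 1.61, 5.51 and 10.3 FPKM, against 0 in every Fev-only set; adjusted p = 0.0214, limma), where 1.31% of all genes tested were higher and 0.0901% lower. For 0 of the 38 genes was every hormone set below every Fev-only set, against 0.0901% of all genes tested. The count of 1 higher gene was 0 without E13.5 run 2, without E15.5 run 1 or without E15.5 run 2. The median differences were 0.71 and 0.83 for replication and mitotic genes, against 0.31 over all genes.

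Cells with no marker, tested in the 4 sets with 5 or more such cells, had less of 8 genes than Neurog3-only cells, 7 for replication (Mcm2, Mcm3, Mcm4, Mcm6, Gins1, Gins2 and Rrm1) and Ccnb2, where 4.88% of all genes tested were lower and 1.58% higher. Every set was below every Neurog3-only set for Mcm2, Mcm3, Gins2 and Ccnb2, against 3.03% of all genes tested. The count was 2 without E14.5 run 1, without E14.5 run 2 or without E15.5 run 1, 5 without E15.5 run 2, and 11 without E13.5 run 1.

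**Figure D3:**
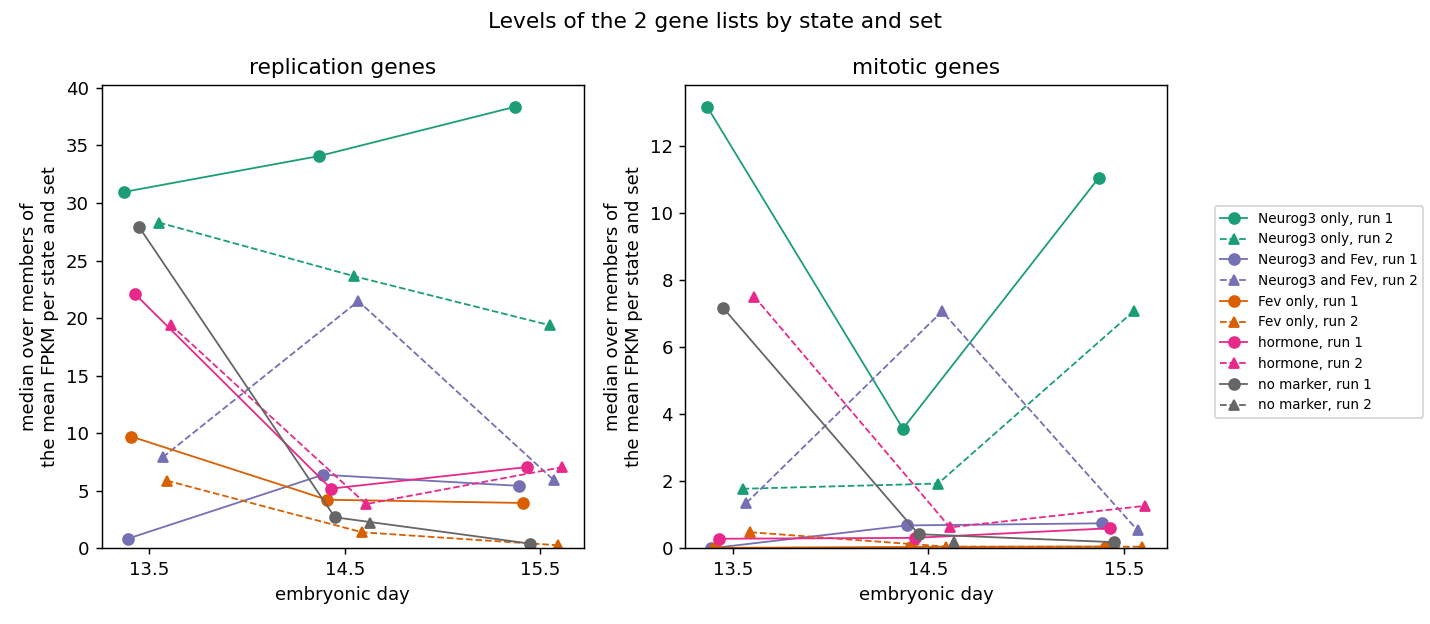
Median over the 20 replication genes (left) and the 22 mitotic genes (right) of the mean FPKM in each state and set, by embryonic day, with run 1 as circles and run 2 as triangles. Neurog3-only replication medians stay between 19.4 and 38.4 FPKM, and the hormone replication medians of both runs are higher at E13.5 than at E14.5 and E15.5.

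Along embryonic day none of the tested genes among the 42 passed limma's test in any cell group (0 of 16154 genes tested over all kept cells, 0%). At an unadjusted p under 0.05 all kept cells had 1914 genes, among them 18 replication and 22 mitotic genes. Ccnf, cyclin F, had the smallest p, with a slope of -1.16 ± 0.15 on the log2 scale per day (adjusted p = 0.154). The mix of cells changed with day as well. By the same limits, 57 of 73 kept cells at E11.5 and 74 of 90 at E12.5 had no marker, against 1 to 11 cells in each later set. In the slope over all kept cells, day and this mix cannot be told apart. Within Neurog3-only cells the slope had 2 replication and 0 mitotic genes at an unadjusted p under 0.05, of 1283 such genes among 14430 tested. Within hormone cells it had 5 and 2, of 1208 such genes among 15231 tested, led by Rrm1 (-1.06 ± 0.25 per day, adjusted p = 0.429). Rrm1 was at 80.4, 42.8, 22.1, 15.99, 16.5 and 9.77 FPKM in hormone cells, so both E13.5 sets were above all later ones.

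Single sets stood apart for single genes. Mcm6 was at 2.33 FPKM in Neurog3-only cells of E13.5 run 1 and at 43.01 to 84.6 FPKM in the other 5 sets, while Mcm3 in that same set was at its highest. In tip-like cells Mcm6 was at 263 FPKM at E11.5 and 27.1 FPKM at E12.5, and in macrophage-like cells at 300 and 20.4 FPKM. Over all kept cells, Cdt1, Pold1, Cdc20 and Cenpa were lower as well in E12.5 run 1 than at E11.5 (differences of -2.55, -2.47, -2.33 and -1.70 on the log2 scale) and lower in E13.5 run 1 than in run 2 (-2.39, -1.90, -1.17 and -1.02). In tip-like cells Cdt1, a partner of Cdc6 in loading the helicase, was at 52.1 FPKM at E11.5 and 7.78 FPKM at E12.5. Transcripts of Cdt1 and Pold1 hold 59% and 60.4% G and C (GENCODE vM21), the highest of the 42 genes, and those of Mcm6 47.4%, below the members' median of 49.3%. Across the 42 genes the correlation of GC with the change from E11.5 to E12.5 was -0.54, and -0.25 across 15936 tested genes. With the difference of E13.5 run 1 from run 2 it was -0.39 across the 42 genes and -0.03 across all. Genes are not independent and share libraries, and no test was made. The part of base composition in these levels was not tested. Run 2 against run 1 called 0 of the members at an adjusted p under 0.05 (limma). At that limit 14 of all genes tested were lower (0.0889%) and 98 higher (0.622%). At an unadjusted p under 0.05 there were 5 members, and those shares are not the background of this count. The share of all genes at the unadjusted limit is not given here, so this count is not a result about the members. Tyms was among these 5, higher in run 2 by 0.69 ± 0.25 (adjusted p = 0.299).

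Counting the genes at a fixed level in each cell shows whether high values lie in few cells or in many. A lower level in every cell lowers such counts too, so fewer cells and less transcript per cell are separated only in part. The median number of replication genes at 10 FPKM or more was 6 in Neurog3-only cells and 3 in Fev-only cells. A cell was called replication-high with 10 or more of the 20 replication genes at 10 FPKM or more, and mitotic-high with 11 or more of the 22 mitotic genes. Over all 658 cells, 550 (83.6%) had 4 or fewer mitotic genes, 43 had 5 to 13 and 65 had 14 or more, of which 15 had all 22. For mitotic genes 11 cells lay at 10 to 12, near the limit, and for replication genes 58 cells lay at 9 to 11. Replication-high alone were 76 cells, both 68, mitotic-high alone 7 and neither 507.

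**Figure D4:**
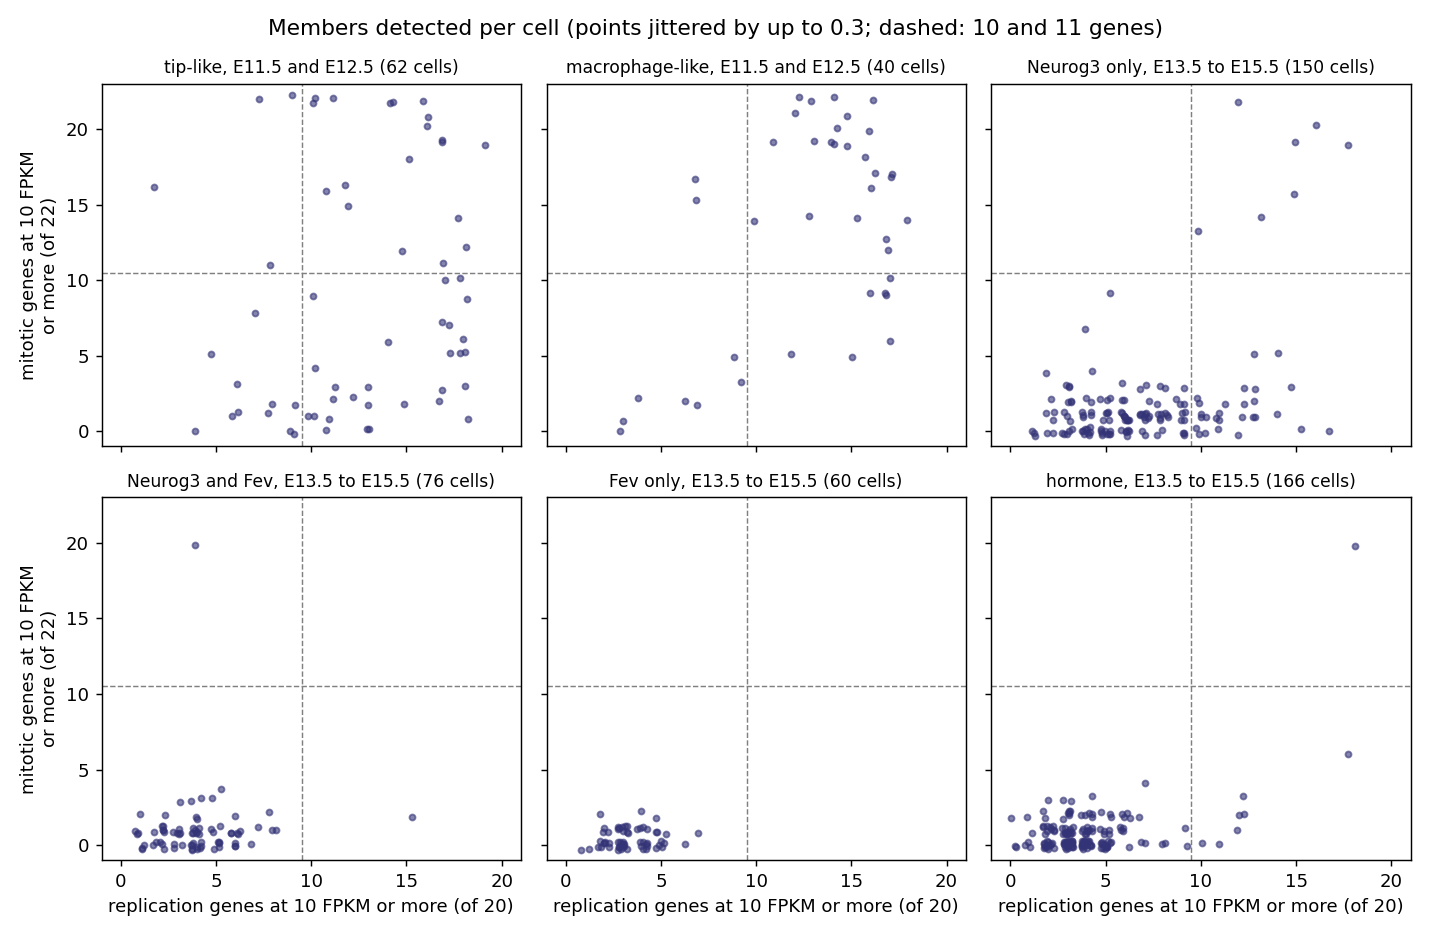
Number of replication genes (x axis, of 20) against mitotic genes (y axis, of 22) at 10 FPKM or more in each cell, by class; points are jittered and dashed lines mark the limits of 10 and 11 genes. Of the macrophage-like cells 24 of 40 are in the upper right and 7 in the lower right, of the tip-like cells 19 of 62 and 28, and of the 150 Neurog3-only cells 7 and 27, while none of the 60 Fev-only cells crosses a line.

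Of the Neurog3-only cells, 34 of 150 (22.7%, 95% exact Clopper-Pearson interval 16.2 to 30.2) were high for either list, and 27 of these were replication-high only and 7 high for both. The share was 18.5%, 25%, 23.3%, 21.4%, 26.1% and 21.4% in the 6 sets. With Neurog3 and Fev, 2 of 76 cells (2.63%, 0.3 to 9.2) were high, with Fev only 0 of 60 (upper limit 6.0%), with a hormone 8 of 166 (4.82%, 2.1 to 9.3) and with no marker 1 of 43 (2.33%, 0.1 to 12.3). The Neurog3-only share over all 6 sets lay above the intervals of these 4 states. At E13.5 alone it was 21.8%, inside the intervals of hormone cells (7.7 to 34.3) and of no-marker cells (1 of 10 cells, 0.3 to 44.5). At E14.5 it was 22.4%, inside the interval of cells with Neurog3 and Fev (2 of 27 cells, 0.9 to 24.3). At E15.5 it was 24.3%, inside that of no-marker cells (0 of 13 cells, upper limit 24.7%). Without the macrophage-like cell the no-marker count was 1 of 42. Intervals cover counting error only, and PCR copies cannot be told from separate molecules. Lowering the level for a gene to 1 FPKM raised the Neurog3-only share to 36%, that with Neurog3 and Fev to 6.58% and that with a hormone to 8.43%, and left the Fev-only count at 0 of 60.

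All 8 hormone cells that were high had Neurog3 at 10 FPKM or more. That is 8 of 62 hormone cells with Neurog3 (12.9%, 5.7 to 23.9) and 0 of 104 without (upper limit 3.5%). By day, 7 of the 38 hormone cells of E13.5 were high (18.4%, 7.7 to 34.3), 0 of 49 at E14.5 (upper limit 7.3%) and 1 of 79 at E15.5 (1.27%). At E13.5 itself it was 7 of 23 with Neurog3 and 0 of 15 without. By hormone it was 2 of 40 cells with insulin alone, 3 of 30 with glucagon alone, 0 of 9 with somatostatin alone, 1 of 20 with ghrelin alone, 1 of 16 with pancreatic polypeptide alone and 1 of 51 with more than 1 hormone.

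The Neurog3-only cells were also counted by their Neurog3 level. Of 91 cells with Neurog3 at 1000 FPKM or more, 22 were replication-high only and 1 high for both. Of 49 cells at 100 to 1000 FPKM, 5 were replication-high only and 4 high for both, and of 10 cells at 10 to 100 FPKM, 0 and 2. Of the 9 high cells at 100 to 1000 FPKM, 5 came from E15.5 run 1. Median Neurog3 was 2026 FPKM in the 27 replication-only cells, 208 FPKM in the 7 cells high for both and 1334 FPKM in the 116 others. These are counts of cells from shared sets, and no test was made.

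Among cells high for either list, the share that was mitotic-high was 7 of 34 (20.6%, 8.7 to 37.9) in Neurog3-only cells, and 4 of 28 (14.3%) without E15.5 run 1. It was 23 of 51 (45.1%, 31.1 to 59.7) in tip-like cells and 26 of 33 (78.8%, 61.1 to 91) in macrophage-like cells. High cells made up 51 of 62 tip-like cells (82.3%, 70.5 to 90.8) and 33 of 40 macrophage-like cells (82.5%, 67.2 to 92.7), as well as 10 of 13 cells carrying endothelial markers. Few Neurog3-only cells came from these early days. At E12.5, 5 of 7 were high, all for both lists, and at E11.5 0 of 6, of which 1 was macrophage-like; no test was made.

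The genes differed in how far they followed the high cells. In the 450 cells of E13.5 to E15.5 that were high for neither list, Tyms was still at 10 FPKM or more in 96.4%, Gins2 in 50%, Pcna in 46.4%, Mcm7 in 35.1%, Mcm2 in 32.9% and Rrm1 in 31.3%. Cdc6 was so in 1.33% and Chaf1a, a histone chaperone subunit, in 0.444%. No mitotic gene passed 10.2% there, the value of Cenpa, the centromere histone. The 9 cells high for both lists had Rrm2 in 88.9% and Tk1 (thymidine kinase) in 88.9%, against 22.9% and 17.1% of the 35 replication-only cells. Cyclin E1, Ccne1, went the other way, with 0% and 31.4%, and Mcm3, Mcm4 and Mcm6 were at 77.8% and 94.3%. These classes were cut on the same genes, so the shares describe them and are not tested. Median fragments were 699248 in the replication-only cells, 450781 in the cells high for both and 592506 in the others.

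Other genes of the same pathways were taken from lists of 50 replication, 64 mitotic and 25 G1 genes, the last holding cyclins, inhibitors and E2F factors that decide entry into the cycle. In Fev-only against Neurog3-only cells 13 of 48 tested other replication genes were lower and 0 higher, 3 of 49 other mitotic genes lower and 0 higher, and 8 of 23 G1 genes lower and 2 higher (5.14% of all genes lower, 3.59% higher). The count of 3 other mitotic genes is near the share over all genes and is not a result about that list. Of its 49 differences 43 were negative, with a median of -0.87. Hells, a chromatin remodeller, was at 4.56 to 24.96 FPKM in Neurog3-only sets and 0 to 1.38 FPKM in Fev-only sets. Timeless, a replication fork protein, was at 8.23 to 17.2 and 0 to 2.97 FPKM. Cks1b, a Cdk subunit, was at 89.6 to 220 and 12.9 to 86.99 FPKM. None of these 3 ranges overlapped, and the differences were -3.25 ± 0.62, -3.12 ± 0.61 and -2.02 ± 0.33 (adjusted p = 0.00123, 0.00149 and 0.000236, limma). Other genes past the test did overlap. Cdca3 was at 1.14 to 25.6 FPKM in Neurog3-only sets and 0 to 2.24 FPKM in Fev-only sets, and Uhrf1 at 5.76 to 24.3 and 0 to 12.3 FPKM. Pbk did not overlap, at 1.18 to 14.4 and 0 to 0.315 FPKM.

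The G1 genes moved in both directions. Gadd45a, a growth arrest and stress gene, was at 90.9, 385, 142, 256, 421 and 540 FPKM in Neurog3-only cells and at 15.3, 4.41, 8.69, 5.60, 30.7 and 29.9 FPKM in Fev-only cells, a difference of -4.28 ± 0.51 (adjusted p = 6.18e-06, limma). Among the Cdk inhibitors, Cdkn1b rose by 2.19 ± 0.41 (adjusted p = 0.00101), from 0.744, 3.15, 6.998, 2.95, 8.15 and 7.61 FPKM in Neurog3-only cells to 16.6 to 39.6 FPKM in 5 Fev-only sets, with E14.5 run 2 lower but still above every Neurog3-only set. Cdkn2d rose by 1.37 ± 0.44 (adjusted p = 0.0497), and Cdkn1c fell by 2.86 ± 0.48 (adjusted p = 0.00031), although its Fev-only set of E13.5 run 1 was at 12.3 FPKM and its others at 0 to 1.51 FPKM. Ccnd2, a D-type cyclin, fell by 2.72 ± 0.60 (adjusted p = 0.00423), and E2f1, a factor that binds E2F sites, fell by 2.30 ± 0.60 (adjusted p = 0.0156). Cdkn1b was apart in all 6 sets, and so was E2f1, at 8.60 to 24.9 FPKM in Neurog3-only and 0 to 7.14 FPKM in Fev-only sets.

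In hormone against Neurog3-only cells, 2 of the 48 other replication genes were lower (1.12% of all genes) and 0 of the 49 other mitotic genes, while 1 mitotic gene was higher (4.77% of all genes). That gene was Spc25, a kinetochore subunit, at 19.6, 59.6, 45.5, 56.7, 68.8 and 120 FPKM in hormone cells and 28.5, 1.00, 2.99, 10.1, 32.1 and 3.54 FPKM in Neurog3-only cells. The ranges overlapped in E13.5 run 1 and E15.5 run 1, and the difference was 2.69 ± 0.77 (adjusted p = 0.0373, limma). Of the 23 G1 genes 3 were lower and Cdkn2d was higher, by 1.47 ± 0.44 (adjusted p = 0.0449). Against Fev-only cells, hormone cells had more Ccnd2 and Cdkn1c (differences of 2.85 ± 0.60 and 1.94 ± 0.48, adjusted p = 0.0174 and 0.0391, limma) and more Cks1b (1.62 ± 0.33, adjusted p = 0.0117).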

How the data were processed

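Single eGFP-positive cells were measured by SMART-seq. The authors deposited FPKM per gene and cell, and the submitters' processing notes name TopHat2 2.0.13, Cufflinks 2.2.0 and build mm10; these notes do not state the annotation. FPKM is scaled by the authors to transcript length and depth, and has no molecular identifiers or strand.

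Cells with at least 100000 fragments (the labels' total mass) and 1500 genes at 1 FPKM were kept, 658 of 721. No doublet caller was run on these singly sorted cells. Members and lists were chosen with earlier results of these data known. All 42 members may be named, and of each other list up to 4 genes per direction with the largest changes past the test. The rule that names a cell tip-like or macrophage-like was set after the files were seen, from markers listed earlier.

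Mean FPKM per state and set (5 or more cells) was tested as log2(mean + 1) with limma 3.58.1 in R 4.3.3 (trend, two-sided, Benjamini-Hochberg over all genes with a mean of at least 1 FPKM, threshold 0.05), with set as a term. The script was tested on simulated data. Slopes carry run as a term. Cell shares have 95% exact intervals (Clopper-Pearson) and no p, being scores over the members. Alternatives were other pseudocounts, filters, state limits, scalings, weights, single runs and leaving out each set.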

Additional observations from a re-analysis of the deposited data

Results flagged for a closer look

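The values below, each of 1 set, stood apart from the other sets of their state by Dixon's ratio. For levels, chance does this for about 1 in 20 groups. For shares this rate does not hold, as each flagged share was the only one above 0, which fixes the ratio at 1. Flags of the same state and set come from the same cells and are not separate. In cells with Neurog3 and Fev, E14.5 run 2 had the highest median level of the replication genes (21.47 FPKM) and of the mitotic genes (7.063 FPKM), the highest share of cells high for either list (15.38%, 2 of 13 cells) and of mitotic-high cells (7.692%, 1 of 13). In hormone cells, E13.5 run 2 had the highest mitotic median (7.506 FPKM) and share of mitotic-high cells (4.762%, 1 of 21). In cells with no marker, E13.5 run 1 had the highest replication median (27.89 FPKM), mitotic median (7.175 FPKM) and shares of cells high for either list and mitotic-high (11.11% each, 1 of 9). In Fev-only cells, E13.5 run 2 had the highest mitotic median (0.4774 FPKM), with 0 of 10 cells high for either list.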

How the results depend on the processing

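No call of a member reversed direction. Counts of members called, lower unless said, moved as follows, and the causes were not tested beyond fewer sets entering a fit. Apart from hormone cells with Neurog3 below 10 FPKM, shares of all genes called under a changed setting are not given here or above. Calls over all genes can move with the setting as well, so whether a moved count is particular to the members was not tested. In Fev only against Neurog3 only (16) the count was 7 with Neurog3 and Fev limits of 1 FPKM, 7 with at least 10 cells per state and set, 2 in run 1 alone and 4 in run 2 alone, and 9 to 16 when each set was left out. In hormone against Neurog3 only (2) it was 1 with a pseudocount of 0.1 FPKM, 6 with 10 FPKM, 11 on the mean of log2 values, 4 with at least 300000 fragments, 6 with cells rescaled without predicted, small RNA and mitochondrial genes, 1 with hormones at 10 FPKM, 7 at 1000 FPKM, 6 with Neurog3 and Fev at 1 FPKM, 6 with 10 cells, 14 with means weighted by cells, 0 in each run alone, 1 without a set term, 13 with hormone cells below 10 FPKM of Neurog3, and 1 to 7 without each set. In Neurog3 and Fev against Neurog3 only (1) it was 3 with a pseudocount of 10 FPKM, 8 on the mean of log2 values, 3 with hormones at 10 FPKM, 3 with Neurog3 and Fev at 1 FPKM, 3 weighted, 0 in each run alone, and 0 to 3 without each set. In hormone against Fev only (1 higher) it was 2 with a pseudocount of 0.1 FPKM, and 0 with 10 FPKM, genes of at least 5 FPKM, the mean of log2 values, hormones at 1000 FPKM, Neurog3 and Fev at 1 FPKM, 10 cells, each run alone and no set term, and 0 to 1 without each set. In no marker against Neurog3 only (8) it was 4 without a filter, 2 with hormones at 10 FPKM, 4 with Neurog3 and Fev at 1 FPKM, 1 with 10 cells, 1 in run 1 alone, 0 in run 2 alone, 5 without a set term, and 2 to 11 without each set. The slope in hormone cells (0) called 4 on the mean of log2 values. The share of Neurog3-only cells high for either list (22.7%) was 36% with genes counted at 1 FPKM, and that of cells with Neurog3 and Fev (2.63%) was 6.58% so and 1.47% with at least 300000 fragments. The other slopes, the run comparison and the differences between runs or along day called 0 members in every setting tried.

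States were paired by set, the set being a term of each fit; without it 14 members were lower in Fev only against Neurog3 only. For single cells by their label numbers, no paired analysis was possible because these name wells and tie no cells together. Depth limits what can be said of low genes: Chaf1a, Mki67, Cenpe and Cenpf averaged under 1 FPKM over the states, and a state of 7 to 15 cells in a set can miss a share of a few percent.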
